A study of Homo sapiens with 9 samples.

Results

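Gold nanoparticles conjugated to an HDM2 peptide (the conjugate, 3 arrays) were compared with no treatment (3 arrays) in Y79 cells, across 18132 genes. These 6 of the 9 arrays of the series were chosen by their labels alone. The other 3 arrays, of cells given gold nanoparticles without the peptide, appear only as values set beside a result. Y79 is a suspension line established from a human retinoblastoma, and all 3 groups are this line. The arrays were Affymetrix PrimeView arrays, which read RNA through probe sets near the 3' end of each transcript. The sources used here give no dose, no duration of treatment and no culture of origin for the arrays. P-values therefore cover the spread among these arrays alone, and that spread may be technical. The comparison asks how the transcriptome of retinoblastoma cells differs after a nanoparticle conjugate meant to interfere with the binding of p53 to HDM2.

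HDM2, the human MDM2 protein, binds p53, hides its activating domain and marks it for destruction. When that binding is blocked in cells with working p53, p53 builds up and switches on targets that include CDKN1A, BAX, BBC3 and MDM2 itself, which makes MDM2 RNA a common readout. Active p53 also lowers many cell cycle genes, largely through CDKN1A and the DREAM repressor complex, which acts at CHR and E2F elements in their promoters.

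Each deposited value is a log2 difference from a baseline of its probe set, so values are changes and not levels, and a difference of 1 is a 2-fold difference. The numeric step of the stored values gave a class of baseline level for most probe sets, called dim (14105 probe sets), middle (23779) and bright (8680). On the conjugate arrays dim probe sets were shifted up and bright ones down. The medians of bright probe sets were -1.35, -1.85 and -0.31 on conjugate replicates 1, 2 and 3, against 0, 0 and 0.04 on the untreated arrays. The medians of dim probe sets were 0.54, 0.71 and 0.18 with the conjugate, against 0.03, 0 and 0 without. The shift was smallest on conjugate replicate 3. Values were therefore centred on each array's median within each class, and the change as deposited is given beside the centred one for many of the lists and genes. The median change over all genes was 0.07 after centring and 0.25 as deposited.

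**Figure D1:**
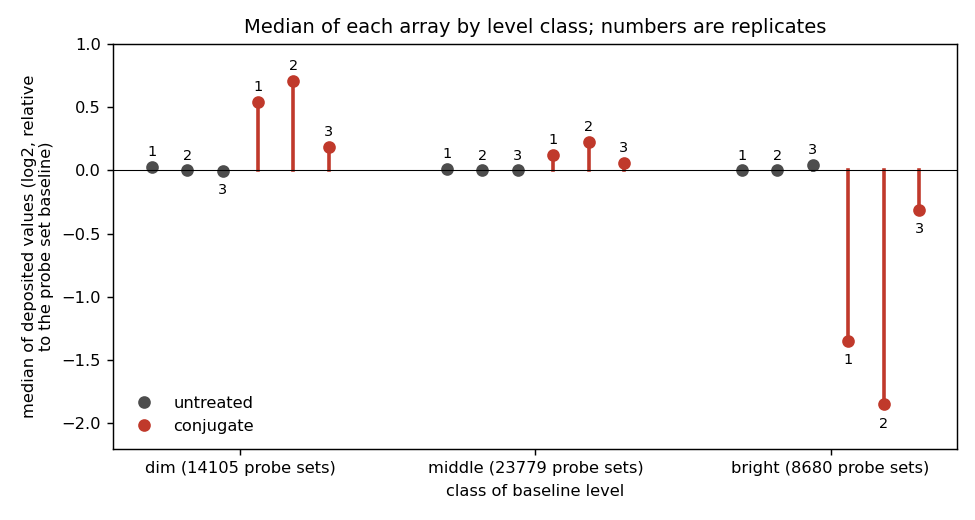
Median of the deposited log2 values of each array in the dim, middle and bright classes of baseline level, for untreated (grey) and conjugate (red) replicates. Conjugate medians lie above 0 for dim and below 0 for bright probe sets, from -0.31 to -1.85 in the bright class, and replicate 3 lies nearest the untreated arrays in all 3 classes.

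Spread, controls and resemblance also differed between the arrays. After centring, the SD over all probe sets was 1.08, 1.24 and 0.62 on the conjugate arrays and between 0.24 and 0.36 on the untreated arrays. Added hybridization controls were higher with the conjugate by 1.94 and poly-A controls by 1.89, while 18S ribosomal RNA was lower by 2.11 (exact permutation test, 2-sided p = 0.1 for each, the smallest that 3 against 3 arrays allow). Background probe sets lay at 0.54, 0.62 and 0.39 with the conjugate and at 0.04, -0.05 and -0.01 without. They were higher by 0.52 (exact permutation test, 2-sided p = 0.1). The 5' minus 3' difference of GAPDH, a measure of RNA or labelling quality, was -0.61, -0.61 and -0.39 with the conjugate and -0.03, -0.08 and 0 without. The part of these differences in the gene changes was not tested. Across genes, which are not independent replicates, conjugate replicate 3 correlated with replicates 1 and 2 at r = 0.78 and 0.75. Untreated replicate 3 stood apart from its own group, with r = -0.06 and 0.25 to untreated replicates 1 and 2 and r from 0.48 to 0.62 to the bare particle arrays. Results are therefore also given without it.

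**Figure D2:**
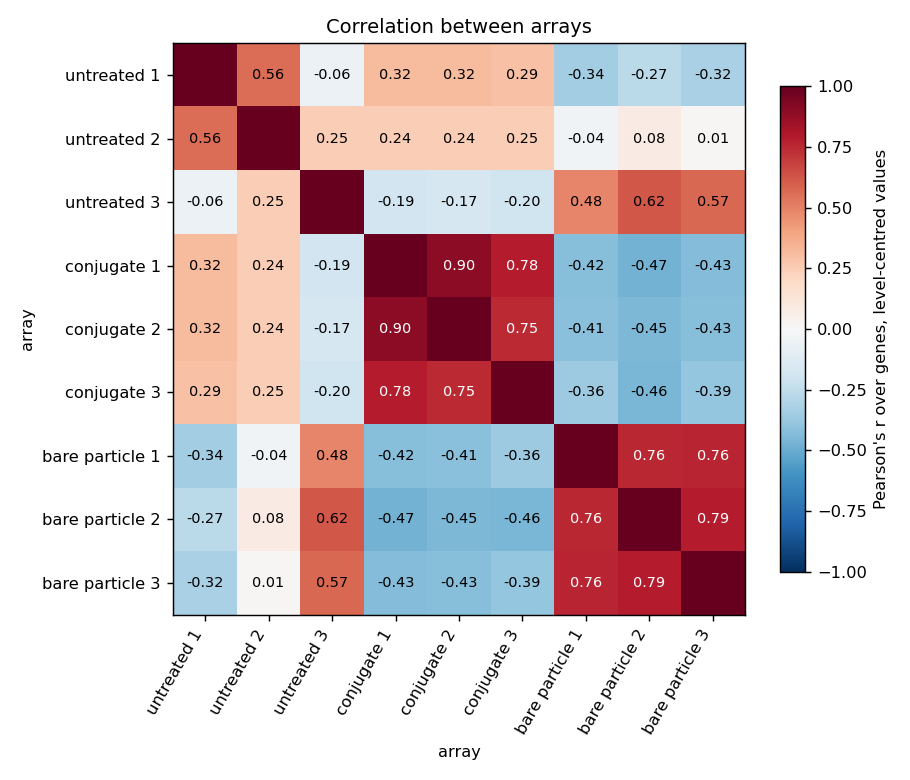
Pearson's r between arrays over genes, from level-centred values (rows and columns are the 9 arrays, colour runs from -1 in blue to 1 in red). The conjugate arrays form one block (0.75 to 0.90), while untreated replicate 3 correlates with the bare particle arrays (0.48 to 0.62) more than with untreated replicates 1 and 2 (-0.06 and 0.25).

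After centring, 2375 genes rose with the conjugate (13.1% of 18132) and 2709 fell (14.9%; limma with Benjamini-Hochberg adjustment, adjusted p under 0.05). Of these, 863 rose and 1851 fell by at least 2-fold. All 3 conjugate values lay above all 3 untreated values for 4823 genes (26.6%) and below them for 4255 (23.5%). As deposited, 2842 genes rose (15.7%) and 3160 fell (17.4%), and 207 of the genes that rose after centring were lower as deposited. Among the 12969 genes without a bright probe set, 1237 rose (9.54%) and 1276 fell (9.84%). Centring moved the median change of bright genes most, from -1.07 to 0.11. It also moved that of dim genes, which are in this set, from 0.54 to 0.07. The calls rested on having both conjugate replicates 1 and 2. Without conjugate replicate 1 limma called no gene (lowest adjusted p = 0.104; 1799 higher and 2268 lower at an unadjusted p under 0.05), and without replicate 2 it called 10 higher and 157 lower. All 5084 called genes kept their direction in both cases, but they were called from these same arrays, so this is no check of the calls. Without conjugate replicate 3 the counts were 3919 and 3654. Without untreated replicate 2 they were 1094 and 1903, and without untreated replicate 3 they were 1874 and 2639.

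MDM2, the RNA of HDM2 itself, lay at -0.04, -0.05 and -0.18 on untreated replicates 1 to 3 and at -0.68, -0.60 and -0.30 on the conjugate replicates. The groups did not overlap and the conjugate values were the lower ones. The change was -0.44 with a standard error of 0.18 and did not pass the test (limma adjusted p = 0.0937; as deposited -0.35, adjusted p = 0.218). It did pass as lower in 3 alternatives: without conjugate replicate 3 (-0.55, limma adjusted p = 0.0381), with probe sets of no level class left out (-0.68, adjusted p = 0.0309) and with a weight for each array (-0.58, adjusted p = 0.00156). Its 11 probe sets ran from -1.73 to 1.30, so the average hides disagreement among them. MDM4, the related p53 inhibitor, lay at 0.34, 0.10 and -0.65 untreated and at 0.33, 0.30 and 0.50 with the conjugate, and the groups overlapped (0.45, adjusted p = 0.374; as deposited -0.29). CDKN1A, the cell cycle inhibitor, lay at 1.46, 1.04 and -0.15 untreated and at 1.21, 1.31 and 0.72 with the conjugate. Untreated replicate 3 alone was low, and the change of 0.30 turned to -0.17 without that array and to -0.88 as deposited, none of them past the test. As deposited and without untreated replicate 3 it was lower by log2 -1.34 (limma adjusted p = 0.019).

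Of 30 measured p53 targets, 1 rose (3.33%) and 6 fell (20%), beside 13.1% and 14.9% of all genes, with a median of -0.25 (-0.66 as deposited). As deposited, none rose and 9 fell. PHLDA3, a p53-induced brake on AKT, was the one that rose, from -0.02, 0.05 and -0.56 to 1.23, 1.13 and 0.21 (1.03, adjusted p = 0.0437; as deposited 0.72, adjusted p = 0.113). TIGAR, which lowers glycolytic flux, fell by 1.59 (SE 0.27, adjusted p = 0.00888) and PPM1D, the phosphatase that switches p53 signalling off, fell by 1.56 (SE 0.26, adjusted p = 0.00879). Both groups lay apart for each, with PPM1D at 0.25, 0.02 and -0.16 untreated and at -1.75, -1.90 and -0.93 with the conjugate. The others that fell were FBXW7 (-2.40), SESN1 (-1.37), CCNG1 (-1.23) and POLH (-1.06), named after their values were seen. The apoptosis mediators BBC3 and BAX changed by -0.15 and -0.14 and did not pass the test (adjusted p = 0.774 and 0.694). GADD45A, a stress-induced growth arrest gene, changed by 0.62 (SE 0.62, adjusted p = 0.477).

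Genes that act on p53 or HDM2 stood further down. Of 21 measured regulators 12 fell (57.1%) and 2 rose (9.52%), beside 14.9% and 13.1% of all genes. The median was -0.77 (-0.78 as deposited), and 11 fell without untreated replicate 3. CHEK1, the checkpoint kinase of stalled replication, lay at 0.12, -0.40 and -0.40 untreated and at -2.38, -2.05 and -1.22 with the conjugate, so the groups were well apart (-1.65, SE 0.31, adjusted p = 0.0112). YY1, a transcription factor that promotes p53 ubiquitination by HDM2, fell by 1.09 (adjusted p = 0.00915). The DNA damage kinases ATR and ATM fell by 1.73 and 1.09, the acetyltransferases EP300 and CREBBP by 2.16 and 1.03, and the p53 ubiquitin ligase RCHY1 changed by -2.01, all past the test and again named after their values were seen. TP73, a p53 relative, rose by 0.63 (adjusted p = 0.0398), although its 9 probe sets ran from -0.82 to 1.18. DAXX was higher by 0.93 after centring (adjusted p = 0.0325) but lower by 0.25 as deposited.

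Mitosis and spindle genes made up the list with the lowest median, -1.23 (-1.62 as deposited). Of 40 measured members 29 fell and 1 rose, beside 14.9% and 13.1% of all genes. The counts were 27 and 0 without untreated replicate 3 and 32 and 1 as deposited. The changes of the 29 that fell ran from -0.54 to -2.71. For 31 of the 40 members all conjugate values lay below all untreated ones on the centred scale, beside 23.5% of all genes. TTK, the spindle checkpoint kinase MPS1, lay at 0.00, -0.27 and -0.28 untreated and at -3.02, -3.26 and -2.40 with the conjugate. After centring, replicate 3 moved nearly as far as the others (-2.71, SE 0.23, limma adjusted p = 0.00374). As deposited the conjugate values of TTK were -4.37, -5.11 and -2.71, so replicate 3 moved less far there. CKAP2, a microtubule-stabilizing protein, lay at -0.21, -0.17 and 0.20 untreated and at -2.34, -2.28 and -2.06 with the conjugate (-2.17, SE 0.22, adjusted p = 0.00374). KIF4A, a chromosome-bound kinesin, was the exception that rose (0.57, adjusted p = 0.0359), from values between -0.09 and -0.01 to 0.36, 0.58 and 0.62. The regulators CDC20 (0.11), PLK1 (0.12) and AURKB (0.30) did not pass the test.

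Promoters of the mitosis list often held a CHR, the element through which DREAM acts. The letters TTTGAA or TTCGAA, on either strand, were in the window from 250 bases before to 50 after the start in 25 of 36 members with a promoter sequence (69.4%), and in 20 of the 27 of these that fell. The same letters were in 13.5% of 14425 promoters of measured genes and in 16.6% of all 27305. A match is only a description of the window. These 3 windows, from RefSeq on GRCh38.p14, belong to genes that fell strongly and were picked after their values were seen. Each is shown with up to 60 bases on either side of its match nearest the start site. No base past that site is shown, and matching letters are in capitals. DLGAP5 (chr14:55191629-55191754, minus strand) codes for a spindle assembly protein, CENPA (chr2:26785978-26786055, plus strand) for the centromeric histone, and KIF23 (chr15:69414234-69414348, plus strand) for a kinesin of cytokinesis.
DLGAP5: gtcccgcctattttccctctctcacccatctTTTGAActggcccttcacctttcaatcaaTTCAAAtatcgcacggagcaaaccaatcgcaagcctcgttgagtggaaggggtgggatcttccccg
CENPA: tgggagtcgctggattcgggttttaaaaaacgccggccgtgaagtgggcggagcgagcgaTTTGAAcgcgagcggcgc
KIF23: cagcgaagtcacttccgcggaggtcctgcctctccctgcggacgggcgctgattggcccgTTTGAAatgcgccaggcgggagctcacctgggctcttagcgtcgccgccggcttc

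DLGAP5, with matches on both strands, lay at 0.00, 0.12 and 0.48 untreated and at -3.18, -2.04 and -1.97 with the conjugate (-2.60, SE 0.31, limma adjusted p = 0.00494). CENPA lay at 0.53, 0.94 and 1.78 untreated and at -1.37, -1.74 and -0.87 with the conjugate (-2.42, SE 0.45, adjusted p = 0.0111). KIF23 lay at -0.02, 0.16 and 0.35 untreated and at -1.44, -2.68 and -1.22 with the conjugate (-1.94, SE 0.32, adjusted p = 0.00839). In all 3 the groups lay apart by over 1 unit, and conjugate replicate 3 was the least low.

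**Figure D3:**
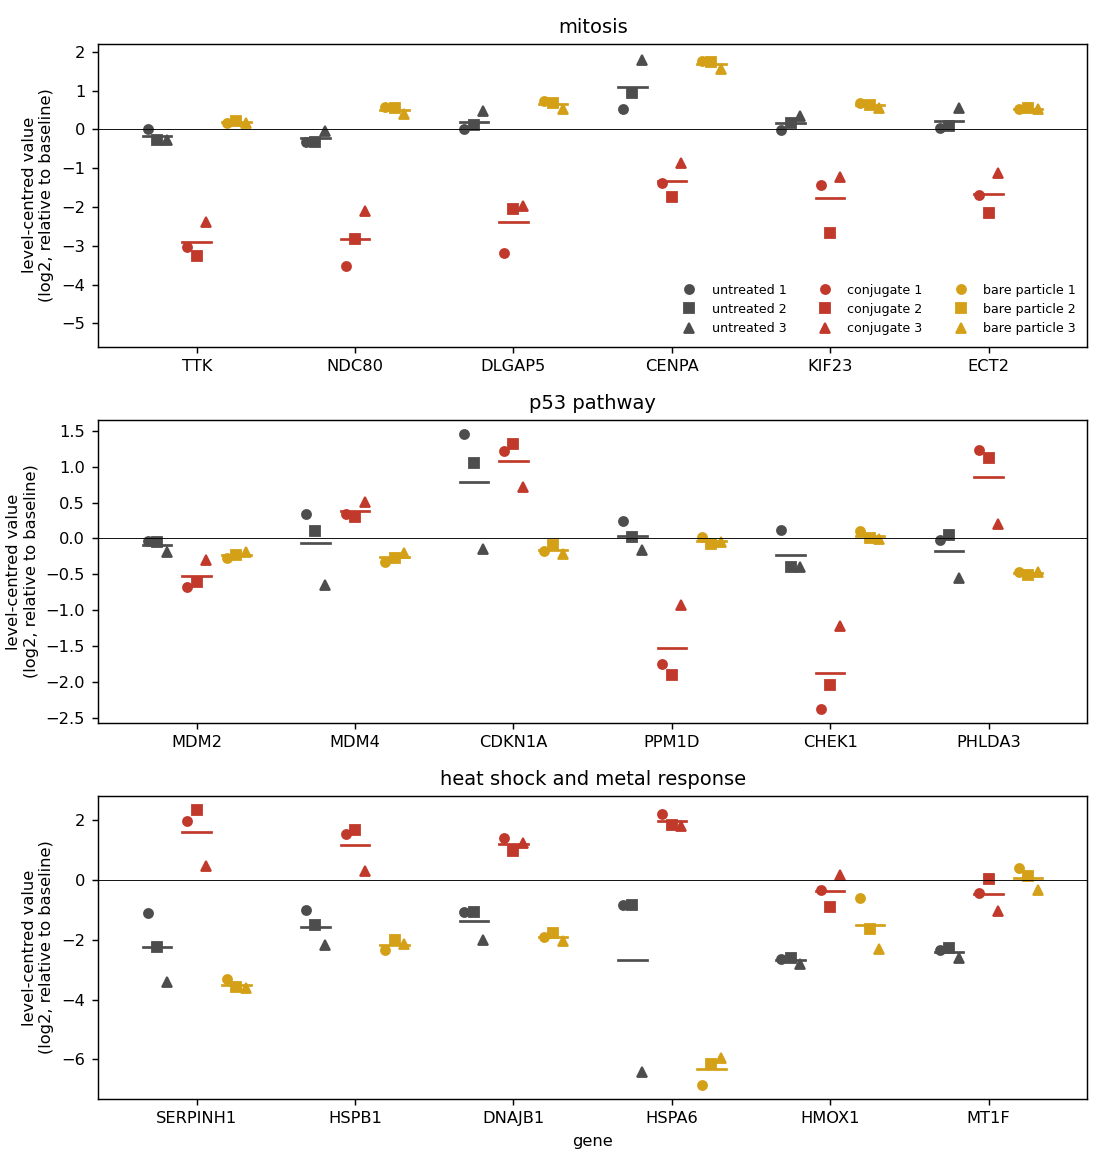
Level-centred log2 values of 18 genes on each of the 9 arrays (marker shape gives the replicate, colour the group, bars the mean of 3 arrays). Mitosis genes are lower on every conjugate array, MDM2 is slightly lower, CDKN1A overlaps, and HSPA6 on untreated replicate 3 lies at -6.41 with the bare particle arrays, far from the other untreated arrays.

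In the other chromosome and replication lists more members fell than rose, and many were not called. Of 20 cohesin and condensin genes 11 fell (55%) and 1 rose (5%), beside 14.9% and 13.1% of all genes (median -0.87). Without conjugate replicate 3, where 3654 of all 18132 genes fell and 3919 rose, 14 of them fell and 2 rose. SMC4, a core condensin ATPase, lay at 0.06, -0.29 and 0.14 untreated and at -1.47, -1.50 and -1.36 with the conjugate (-1.41, SE 0.21, limma adjusted p = 0.00741). The 3 conjugate arrays nearly coincided after centring only. As deposited they lay at -2.81, -3.35 and -1.67, with replicate 3 the least low. NCAPD3, of condensin II, fell by 1.47, while NCAPH2, another condensin II subunit, rose by 1.06 (adjusted p = 0.00926; as deposited 0.53, adjusted p = 0.0927). Of 49 replication and G1/S genes 18 fell (36.7%) and 3 rose (6.12%), with a median of -0.49. As deposited 29 fell and none rose, beside 17.4% and 15.7% of all genes. FEN1, the flap endonuclease of lagging strand synthesis, lay at -0.23, -0.05 and 0.44 untreated and at -2.53, -2.70 and -2.32 with the conjugate (-2.57, SE 0.27, adjusted p = 0.00429). ORC3, of the origin recognition complex, fell by 1.59, with 7 probe sets that ran from -4.50 to 0.52.

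An E2F motif, TTTCGCGC, TTTGGCGC or TTTCCCGC on either strand, was found in 22 of the 40 replication and G1/S genes with a promoter sequence (55.0%) and in 3.8% of promoters of measured genes. Of the 17 such genes that fell 10 held it, and of the 3 that rose 2 did. The window of CDC25A (GRCh38.p14, chr3:48188418-48188521, minus strand), a phosphatase that opens the way into S phase, is shown for its match in capitals.
CDC25A: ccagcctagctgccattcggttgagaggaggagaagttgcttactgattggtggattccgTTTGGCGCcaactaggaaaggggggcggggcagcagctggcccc
CDC25A lay at -0.08, -0.18 and -0.16 untreated and at -2.13, -2.17 and -1.15 with the conjugate, and the groups were apart (-1.67, SE 0.24, limma adjusted p = 0.00687). It was named after its values were seen.

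The lists that follow are read beside 14.9% of all genes that fell and 13.1% that rose. Of 26 DNA repair genes 13 fell (50%) and 1 rose (3.85%). The median was -0.82, and 10 fell without untreated replicate 3. MSH6, of mismatch repair, lay at 0.05, -0.36 and 0.04 untreated and at -2.35, -3.10 and -2.41 with the conjugate (-2.53, SE 0.25, adjusted p = 0.00374). RAD50, of the MRN complex, lay between 0.20 and 0.28 untreated and between -1.49 and -1.31 with the conjugate (-1.67, limma adjusted p = 0.00374). Conjugate replicate 3 was the lowest after centring but the least low as deposited (-2.32, -2.46 and -1.67). XRCC3 was the member that rose (0.64, adjusted p = 0.0288). Of 27 nuclear pore genes 17 fell and none rose, with a median of -0.92 (-1.54 as deposited). NUP37, of the Y complex, fell by 2.61 (adjusted p = 0.00738) and SEH1L, of the same complex, by 1.78 (adjusted p = 0.00686). Of 39 chromatin remodelling and histone-modifying genes 18 fell and none rose (median -0.67). The H3K4 demethylase KDM5B fell by 1.74 and the H3K27 demethylase KDM6A fell by 1.5, the groups lying apart for both. Of 19 retinoblastoma genes, which are those mutated, amplified or bound to RB in this tumour, 7 fell and none rose (median -0.52). E2F3 fell by 0.99 (adjusted p = 0.0147). RB1 fell by 0.79 (adjusted p = 0.0135), though its 3 probe sets ran from -3.01 to 1.18.

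Heat shock genes had the highest median of the 44 lists, 0.78 after centring but only 0.09 as deposited. Of 25 measured members 8 rose (32%) and 3 fell (12%), beside 13.1% and 14.9% of all genes. The counts were 5 and 3 as deposited, and 12 and 3 without untreated replicate 3. SERPINH1, the collagen chaperone HSP47, lay at -1.11, -2.24 and -3.42 untreated and at 1.98, 2.34 and 0.47 with the conjugate. The groups were apart, yet the untreated arrays themselves spread over 2 units (3.85, SE 0.81, limma adjusted p = 0.0145; as deposited 2.67). HSPB1, the small heat shock protein HSP27, lay at -0.99, -1.52 and -2.17 untreated and at 1.52, 1.68 and 0.31 with the conjugate (2.73, SE 0.47, adjusted p = 0.00918; as deposited 1.55). DNAJB1, the HSP40 partner of HSP70, lay at -1.08, -1.07 and -2 untreated and at 1.41, 0.96 and 1.22 with the conjugate (2.58, SE 0.38, adjusted p = 0.00695; as deposited 1.85). HSP90AA1, the inducible HSP90, rose by 1.90 after centring and did not pass the test as deposited (0.72, adjusted p = 0.106). The HSP70 relatives HSPA4L and HSPA4 fell by 2.21 and 1.13.

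The strictly inducible members were not called, and their untreated arrays did not match each other. HSPA6, which is nearly silent without stress, lay at -0.84, -0.82 and -6.41 untreated and at 2.21, 1.85 and 1.81 with the conjugate. The bare particle arrays lay at -6.86, -6.14 and -5.97, so untreated replicates 1 and 2 stood over 5 units above untreated replicate 3 and the bare particle arrays. The change of 4.65 had an error of 2.03 (adjusted p = 0.117). HSPA1B showed the same order, at -1.46, -1.40 and -3.83 untreated, at -0.19, -1.23 and 0.89 with the conjugate and between -3.96 and -3.61 with bare particles (2.05, adjusted p = 0.132). BAG3, the HSP70 co-chaperone, lay at -0.69, -0.45 and -3.20 untreated and at 0.50, -0.23 and 0.53 with the conjugate (1.72, adjusted p = 0.214). These 3 genes were picked after their values were seen. They and SERPINH1 were the 4 heat shock members at least 1 unit lower on untreated replicate 3 than on both other untreated arrays, and none was that much higher. Over all genes 38 were lower and 109 higher by as much.

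A heat shock element, here GAANNTTC on either strand, was in the promoter window of 9 of 22 heat shock genes with a sequence (40.9%) and of 5.4% of measured genes. Of the 6 such genes that rose 3 held it, and of the 3 that fell none did. The 3 windows of genes that rose are shown with that match in capitals (GRCh38.p14, plus strand). They are SERPINH1 (chr11:75562122-75562249), HSPB1 (chr7:76302431-76302558) and HSPB8 (chr12:119178783-119178910), a small heat shock protein of chaperone-assisted autophagy.
SERPINH1: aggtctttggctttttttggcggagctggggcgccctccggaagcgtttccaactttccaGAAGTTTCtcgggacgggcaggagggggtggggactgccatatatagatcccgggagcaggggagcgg
HSPB1: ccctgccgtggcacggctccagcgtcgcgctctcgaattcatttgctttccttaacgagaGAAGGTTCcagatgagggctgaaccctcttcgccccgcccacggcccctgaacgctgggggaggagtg
HSPB8: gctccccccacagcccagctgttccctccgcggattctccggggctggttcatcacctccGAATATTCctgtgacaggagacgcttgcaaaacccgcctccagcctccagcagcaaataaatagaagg
HSPB8 lay at -0.72, -0.73 and -0.92 untreated and at 0.13, -0.18 and 0.01 with the conjugate, and the groups were apart (0.78, SE 0.18, limma adjusted p = 0.0183; as deposited 0.91).

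Metal and oxidative stress genes were mixed. Of 14 metal response genes 4 rose (28.6%, beside 13.1% of all genes) and none fell (median 0.48). Without conjugate replicate 3, where 3919 of all 18132 genes rose and 3654 fell, 7 of them rose and 1 fell. MT1F, a metallothionein that binds metal ions, lay at -2.35, -2.26 and -2.62 untreated and at -0.42, 0.02 and -1.05 with the conjugate (1.93, SE 0.26, limma adjusted p = 0.00579), and 2 probe sets gave 0.34 and 3.51. On the bare particle arrays MT1F lay at 0.39, 0.12 and -0.34, so it was also high there. The metal response element TGCNCNC was in 6 of 8 promoters of this list (75%) but also in 60.8% of promoters of measured genes. Of 20 NRF2 targets 3 rose and 3 fell (15% each, near the 13.1% and 14.9% of all genes). As deposited 2 rose and 8 fell. HMOX1, heme oxygenase, lay at -2.63, -2.60 and -2.80 untreated, at -0.34, -0.91 and 0.16 with the conjugate and at -0.61, -1.64 and -2.31 with bare particles (2.31, SE 0.24, adjusted p = 0.00405). SLC7A11, the cystine importer, rose by 1.23, while GCLC, which makes glutathione, and the exporter ABCC1 fell by 1.20 and 1.40. Of 26 ATF4 and unfolded protein response genes 2 rose (7.69%) and 5 fell (19.2%). PPP1R15A (GADD34) rose by 0.97. The ER chaperone gene DNAJC3 fell by 1.33, and INHBE, an ATF4 target, fell from -0.87, -0.71 and -0.90 to -2.73, -2.47 and -2.94 (-1.88, adjusted p = 0.00374). INHBE lay at 0.72, 0.50 and 1 with bare particles, so both treated groups lay apart from the untreated arrays in opposite directions; that difference was not tested.

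Of 46 replication-dependent histone genes 10 rose (21.7%) and 1 fell (2.17%), beside 13.1% and 14.9% of all genes (median 0.16). As deposited 9 rose and 1 fell (median 0.42), beside 15.7% and 17.4% of all genes. H3C10, a histone H3 gene, lay at -0.32, -0.16 and -0.09 untreated and at 1.81, 1.35 and 1.89 with the conjugate, with its 2 probe sets at 0.41 and 3.34 (1.87, SE 0.20, limma adjusted p = 0.00405). H2BC5 rose by 1.64 and was highest on conjugate replicate 3 (1.37, 0.63 and 1.93). H2BC17 fell by 0.76, but not as deposited (-0.29, adjusted p = 0.292). Histone genes are near copies of each other, so probe sets may read more than one. Of 54 ribosomal protein genes 15 rose (27.8%) and none fell after centring (median 0.47). Without conjugate replicate 3, where 3919 of all 18132 genes rose, 29 of the 54 rose. Without untreated replicate 3, where 1874 of all genes rose, 8 of the 54 did. As deposited none rose and 4 fell (median -0.52), so their direction rests on the centring. All 54 had a bright probe set. RPL13, of the large subunit, was higher by 0.83 after centring and lower by 0.36 as deposited.

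Genes that build or feed the ribosome had negative medians on both scales. Of 49 mitochondrial ribosomal protein genes 19 fell and 3 rose (median -0.54; as deposited 26 and 1). MRPL44 lay at 0.14, -0.36 and 0.11 untreated and at -1.74, -2.56 and -1.62 with the conjugate (-1.94, adjusted p = 0.00701). MRPL19 fell by 1.84, and MRPL20 rose by 1.14. Of 30 ribosome biogenesis genes 11 fell and 1 rose (median -0.55). POLR1B, the second largest subunit of RNA polymerase I, lay at 0.51, 0.45 and 0.80 untreated and at -1.86, -2.23 and -1.39 with the conjugate (-2.41, SE 0.24, adjusted p = 0.00374). UTP15, of the small subunit processome, fell by 1.45. Of 33 translation initiation factors 8 fell and 3 rose (median -0.43; as deposited 14 and 0), EIF3A falling by 1.27 and EIF3G rising by 0.91 (as deposited 0.38, adjusted p = 0.217). Of 19 aminoacyl-tRNA synthetases 4 fell (21.1%) and 2 rose (10.5%), beside 14.9% and 13.1% of all genes. RARS1 fell by 1.13 and YARS1 rose by 1.89 (as deposited 0.71, limma adjusted p = 0.0716).

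In the RNA processing and transcription lists more members fell than rose, and most members were not called. Over all genes 14.9% fell and 13.1% rose. Of 37 splicing factor genes 11 fell and 1 rose (median -0.38; as deposited 20 and 0), HNRNPF by 1.11 and SF3A1, of the U2 snRNP, by 1.1. Of 9 minor spliceosome genes 3 fell and none rose, among them SNRNP48 (-1.27). Of 32 RNA helicases 9 fell and 3 rose, DHX29 falling by 2.46 and DDX39B rising by 0.85. Of 14 microRNA processing genes 6 fell and none rose (median -0.71). DROSHA, the nuclease that cuts primary microRNAs, lay at -0.36, -0.09 and 0.29 untreated and at -2.13, -2.64 and -0.97 with the conjugate (-1.87, SE 0.37, limma adjusted p = 0.0133), and XPO5, which exports precursors, fell by 1.30. Of 36 mediator and RNA polymerase II genes 10 fell and 2 rose (median -0.30). MED13, of the mediator kinase module, fell by 1.53 and MED21 by 1.58.

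Of 17 pro-apoptotic BCL2 family and caspase genes 4 rose (23.5%, beside 13.1% of all genes) and none fell (median 0.22). As deposited 3 rose and 1 fell. BMF, a BH3-only protein, lay at -0.01, -0.08 and 0.08 untreated and at 1.23, 1.19 and 0.48 with the conjugate (0.97, SE 0.21, adjusted p = 0.0166). HRK, another BH3-only protein, rose by 0.84, lying at -0.08, 0.09 and 0.10 with the conjugate and between -1.07 and -0.58 untreated. BCL2, the only one of 9 anti-apoptotic genes past the test, fell by 0.65 (adjusted p = 0.028; as deposited -0.52, adjusted p = 0.0986). Of 18 NF-kB targets 4 rose (22.2%) and 1 fell (median 0.58). Without conjugate replicate 3, where 3919 of all 18132 genes rose, 10 of these targets rose. Without untreated replicate 3, 2 of them rose. CXCL2, a chemokine, rose by 1.80, though 1 of its 2 probe sets changed by 0.06. RELB rose by 1.43, and NFKBIA, the inhibitor of NF-kB, fell by 1.15. Of 22 interferon response genes 5 rose (22.7%) and 1 fell (as deposited 10 and 1), but only 1 rose without untreated replicate 3. IFIT3 rose by 1.04 and RSAD2 fell by 1.54. Of 20 immediate early genes 3 rose (15%, near the 13.1% of all genes) and none fell. Without conjugate replicate 3, where more of all genes rose too, 7 of them rose. FOS lay at 0.15, 0.18 and -0.01 untreated, at 1.23, 0.78 and 1.70 with the conjugate, and between -1.19 and -0.91 with bare particles (1.14, SE 0.22, adjusted p = 0.0125). EGR3, another early transcription factor, rose by 0.61.

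Shares in the metabolic and trafficking lists stand beside 14.9% of all genes that fell and 13.1% that rose. Of 16 cholesterol synthesis genes 5 fell (31.2%) and 1 rose (6.25%), with a median of -0.53. IDI1, the isopentenyl diphosphate isomerase, lay at 0.28, -0.41 and 0.00 untreated and at -2.55, -3.39 and -1.28 with the conjugate (-2.36, SE 0.43, adjusted p = 0.0106), and SC5D, a sterol desaturase, fell by 1.70. Of 34 lysosome and autophagy genes 8 fell (23.5%) and 5 rose (14.7%). The proton pump subunits ATP6V1B2 and ATP6V1D fell by 1.64 and 1.37, while the autophagy starters ULK1 and ATG9A rose by 1.03 and 1.05. Of 26 endocytosis genes, which act in particle uptake among other tasks, 6 fell (23.1%) and 3 rose (11.5%). CLTC, the clathrin heavy chain, fell by 1.71, with 5 probe sets from -3.07 to 0.87. EEA1 of early endosomes fell by 1.18, and CAV1 rose by 0.98. Of 45 oxidative phosphorylation genes 6 rose (13.3%, near the share of all genes) and 3 fell (6.67%) after centring. As deposited none rose and 19 fell, so the 6 rises rest on the centring. NDUFS1, of complex I, fell on both scales (-1.04 and -1.96). Of 27 proteasome genes 4 fell (14.8%, near the share of all genes) and 1 rose (3.7%), with PSMA3 down by 1.45. As deposited 20 fell, where 17.4% of all genes did. None of 8 CCT chaperonin genes, which fold actin and tubulin, passed limma after centring (0 higher and 1 lower at an unadjusted p under 0.05), and 7 fell as deposited. Of 27 hypoxia and glycolysis genes 1 rose and 1 fell (3.7% each), the latter ANKRD37 (-1.27).

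Markers of the retina were split. As a check of the labelled tissue, 9 of 31 photoreceptor markers had a bright probe set (29.0%, against 28.5% of all genes), CRX, OTX2 and RBP3 among them, and 10 of 31 had dim and no bright probe sets, so the list as a whole did not stand above all genes. A bright probe set was also present for 6 of 12 retinal progenitor and 4 of 12 Mueller glia markers (50% and 33.3%), while none of 10 pigment epithelium and 1 of 11 blood cell markers did. Of the photoreceptor markers 5 fell (16.1%) and 3 rose (9.68%), beside 14.9% and 13.1% of all genes. RBP3, the retinoid-binding protein of photoreceptors, lay at 1.47, 1.35 and 1.43 untreated and at -1.43, -1.81 and -0.80 with the conjugate (-2.76, SE 0.23, limma adjusted p = 0.00374). IMPG2, a matrix proteoglycan of photoreceptors, fell by 2.45. PDE6G and GUCY2D, of the phototransduction cascade, rose by 1.11 and 0.81. Of 12 retinal progenitor markers 3 rose (25%) and 2 fell (16.7%), HES1 rising by 1.06 and LHX2 falling by 1.12. Of 12 Mueller glia markers 2 rose (16.7%) and 1 fell (8.33%), DKK3 rising by 0.81 and VIM falling by 0.95. Of 21 inner retinal neuron markers 4 fell (19%) and none rose, POU4F2 falling by 1.71 and NEFL by 1.27.

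Among markers that a pure line of this origin should lack, some rose and none fell. Of 10 pigment epithelium markers 2 rose (PMEL by 0.76 and TTR by 0.77), of 14 fibroblast and vessel markers 3 (PECAM1 by 0.98 and PDGFRB by 0.81 among them), of 11 blood cell markers 2 (CD3E by 1.39 and NKG7 by 0.59) and of 15 keratins 3 (KRT4 by 1.67 and KRT19 by 1.16 among them). CD3E and PECAM1 did not pass as deposited (0.87, limma adjusted p = 0.0543, and 0.62, adjusted p = 0.0672), and the 2 probe sets of CD3E gave 0.09 and 2.70. The list shares of 20%, 21.4%, 18.2% and 20% stood beside 13.1% of all genes, and list medians ran from 0.16 to 0.35. Defining markers such as PTPRC of blood cells (0.00) and COL1A2 of fibroblasts (0.07) did not pass the test. Without untreated replicate 3 the counts were 0, 3, 1 and 2. Whether other cells or the shift of the arrays had a part in this was not tested. Among genes with dim probe sets alone, 157 of 3436 dim genes rose and 23 fell, and as deposited 722 rose and 0 fell.

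**Figure D4:**
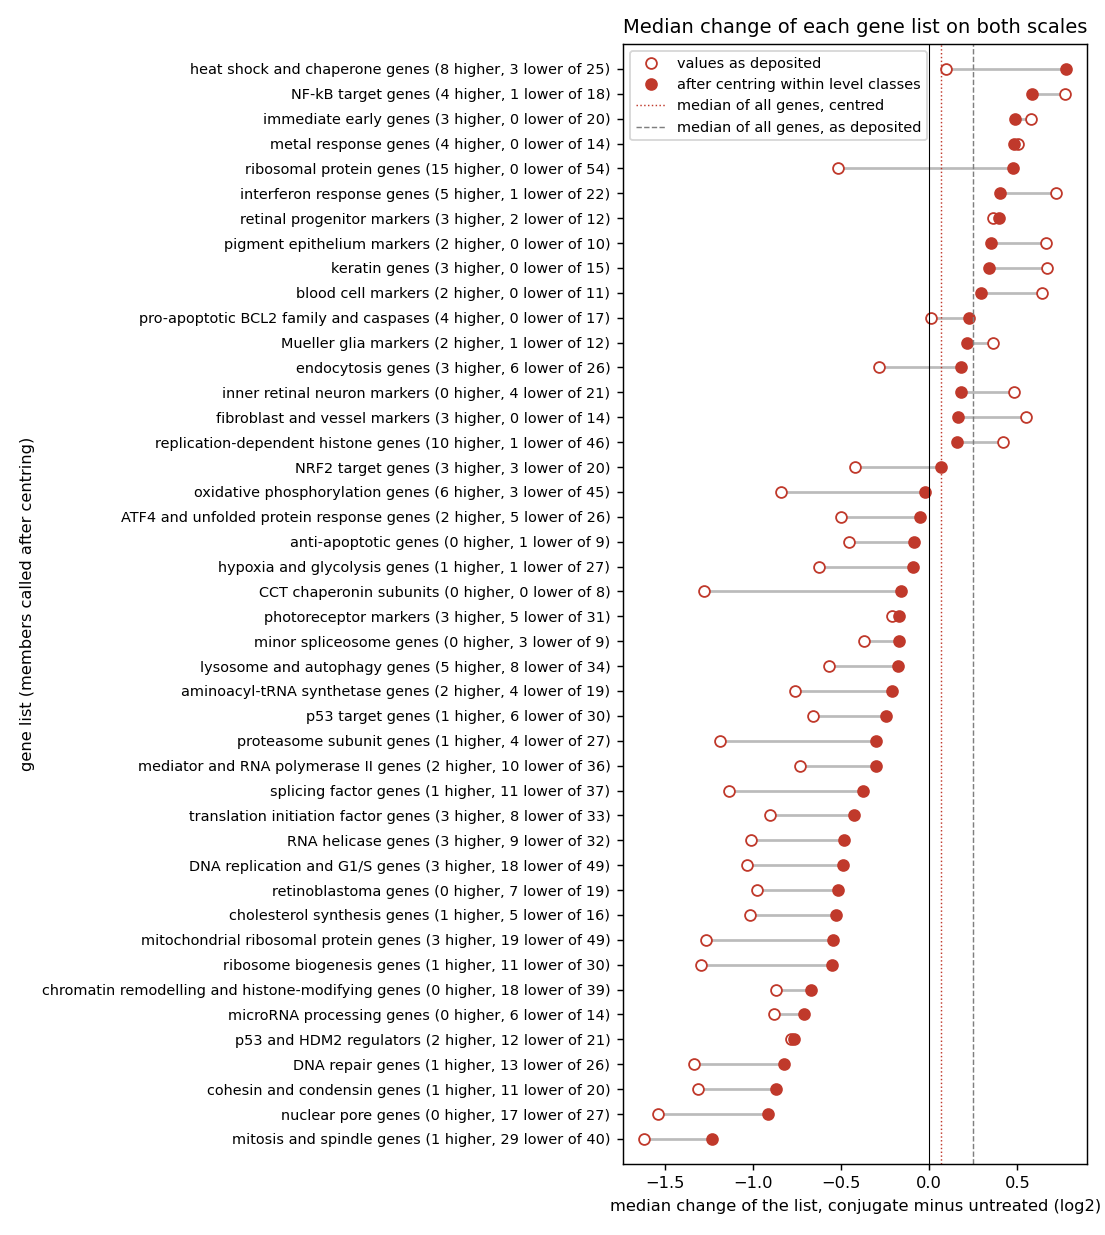
Median log2 change of each of the 44 gene lists, after centring (filled) and as deposited (open), with vertical lines at the medians of all genes (0.07 and 0.25). Mitosis, nuclear pore, cohesin and DNA repair lists are lowest on both scales, while the ribosomal protein list lies at 0.47 on one and -0.52 on the other.

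Among called genes whose groups lay apart on both scales, the largest rise was ZNF566-AS1, an antisense RNA of a zinc finger gene. It lay at 0.79, 0.25 and 0.13 untreated and at 6.01, 6.35 and 2.99 with the conjugate, so that the groups were far apart, and between -0.26 and -0.14 with bare particles (4.73, SE 0.65, limma adjusted p = 0.006; as deposited 4.86). PCP4, a calmodulin-binding protein of neurons, lay at -0.07, -1.61 and -2.14 untreated and at 1.73, 0.82 and 2.30 with the conjugate, where replicate 3 was highest (2.89, adjusted p = 0.0244). The noncoding LINC02447 rose by 2.86 (adjusted p = 0.00374). These 3 belonged to the middle class, where centring changed them little. SERPINH1 had the second largest rise in this ranking (3.85), and HSPB1 (2.73) and DNAJB1 (2.58) were also among its 12 largest. HSPA6, which was not called, is not ranked here. The other genes of the 12 had 1 bright probe set each. They were the olfactory receptors OR1A1 (2.81) and OR11H6 (2.79), the protocadherin PCDHA6 (2.80), LINGO4 (2.70), MBD3L1 (2.67) and RIPPLY3 (2.60), whose changes as deposited ran from 1.42 to 1.62. After quantile normalization the changes of these genes ran from 0.86 to 1.05. With level classes centred and scaled to one spread they ran from 1.09 to 1.26. None of these genes passed the test in either setting, so their calls and the size of their rises depend on the processing. OR1A1 lay at 0.07, 0.16 and -0.05 untreated and at 2.84, 4.46 and 1.30 with the conjugate.

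Under the same conditions the largest fall was in MTPAP, the mitochondrial poly(A) polymerase. It lay at -0.30, -0.11 and 0.68 untreated and at -4.10, -3.86 and -2.05 with the conjugate (-3.43, SE 0.51, limma adjusted p = 0.00709). GLCE, an epimerase of heparan sulfate synthesis, fell by 3.41, SPG11, a lysosome reformation protein, fell by 3.35, and STXBP3, a regulator of vesicle fusion, by 3.31. GLDC, of the mitochondrial glycine cleavage system, lay at -0.75, 0.15 and 0.04 untreated and at -3.44, -4.95 and -2.07 with the conjugate (-3.30, adjusted p = 0.00934). The minor spliceosome gene PDCD7 fell by 3.22 after centring (-4.4 as deposited). MTO1, which modifies mitochondrial tRNA, fell by 3.22 and POLG2, of the mitochondrial DNA polymerase, by 3.14. DACH1, a cofactor of retinal determination, lay at -0.35, 0.25 and 0.73 untreated and at -3.42, -3.64 and -1.79 with the conjugate (-3.16, adjusted p = 0.00794). PCNX4 (-3.15), SCAPER (-3.13) and SRSF8 (-3.11) completed the 12. SCAPER was nearly as low on conjugate replicate 3 (-2.71) as on replicates 1 and 2 (-3.15 and -2.89).

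Whether conjugate replicate 3, the array with the smallest shift, moved with the other 2 was read from genes chosen without it. Genes were taken whose values on conjugate replicates 1 and 2 both lay beyond those on untreated replicates 1 and 2, with mean differences of at least 1, and were then read as conjugate replicate 3 minus untreated replicate 3. Of 1501 genes chosen as higher, 1405 were higher in replicate 3 as well (93.6%, against 54.4% of all genes). Of 2484 chosen as lower, 2309 were lower there (93.0%, against 45.6%). The sizes were smaller. The median was 1.27 in replicates 1 and 2 and 0.61 in replicate 3 for the higher genes, and -1.50 and -0.86 for the lower ones. Against untreated replicate 1 in place of 3 the shares were 90.4% and 92.0%, and against untreated replicate 2 they were 94.1% and 94.7%, but these share the untreated arrays of the choice. Against untreated replicate 3 the shares fell to 70.4% and 82.2% after quantile normalization. They fell to 64.5% and 75.8% after the level classes were also scaled to one spread. Against untreated replicates 1 and 2, which the choice used, no such fall was seen. There the shares ran from 97.5% to 98.7% after quantile normalization and from 98.2% to 98.8% after scaling.

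**Figure D5:**
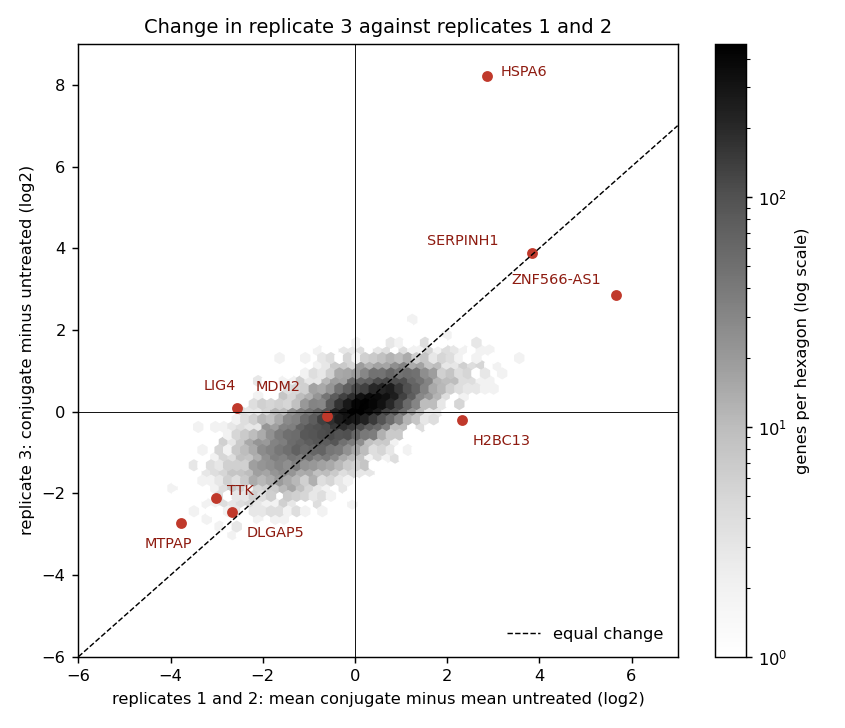
Log2 change of each gene in replicate 3 (vertical) against the mean change in replicates 1 and 2 (horizontal), as counts of genes per hexagon on a log grey scale, with 9 genes marked in red and the line of equal change dashed. Most genes lie in the same quadrant but nearer 0 in replicate 3. SERPINH1 lies on the line and HSPA6 above it, and for both genes untreated replicate 3 is the lowest untreated array.

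By list, most genes kept their direction in replicate 3. In the mitosis list all 25 members chosen as lower in replicates 1 and 2 were lower in replicate 3, and against the mean of the untreated arrays the list median was -1.18, -1.51 and -0.94 on conjugate replicates 1, 2 and 3. For nuclear pore genes it was 14 of 14, with medians of -0.995, -1.14 and -0.62, and for mitochondrial ribosomal protein genes 16 of 16. For DNA repair genes it was 11 of 12 (-0.70, -1.16 and -0.36), and for p53 targets 7 of 8 lower and 1 of 1 higher. Cholesterol synthesis genes held less well, with 6 of 8 and medians of -0.55, -0.999 and -0.10. Of 9 heat shock genes chosen as higher 7 were higher in replicate 3. Genes that went against replicates 1 and 2, picked for their size, included LIG4, the ligase of end joining (-2.57 and 0.08), ROCK1P1, a pseudogene of ROCK1 (-3.30 and 0.04), and the histone gene H2BC13 (2.32 and -0.19).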

How the data were processed

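RNA of 6 arrays was compared, with 3 bare particle arrays for reference. The authors deposited log2 values, each relative to its probe set's baseline. The sources used here name neither the log base nor the baseline nor the summarizing tool, and base 2 is assumed. Of 49395 probe sets, 102 controls were left out. By the platform annotation 44988 of the rest had 1 symbol, 1832 several and 2473 none, and a gene was averaged over probe sets of that symbol alone. Level classes were read from the storage step of the values (baseline 2 to 4, 4 to 8 and 8 to 16), tested on simulated data, and each array was centred within class. Tests used limma 3.58.1 in R 4.3.3 (lmFit, eBayes, arrayWeights by group, Benjamini-Hochberg over all genes, threshold 0.05). Group weights were 1.98 for untreated and 0.506 for conjugate arrays. Errors are standard errors. The number of arrays limits the precision. The members and the 44 lists were chosen with earlier results of these data known. Named were MDM2, MDM4 and CDKN1A, the 12 largest rises and 12 largest falls, and up to 2 members of each list in each direction by adjusted p, among called genes whose groups lay apart on both scales. Promoters came from a RefSeq table. The labels do not say whether replicate numbers pair the arrays, and the main fit did not pair them. Correlations of deviations were 0.126, 0.0477 and 0.244, which cannot settle it with 3 arrays per group.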

Additional observations from a re-analysis of the deposited data

Results flagged for a closer look

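Control probe sets, which belong to no gene comparison, differed between the groups. Added hybridization controls were 1.94 higher on conjugate arrays (1.78, 1.73 and 1.29, against -0.32, -0.39 and -0.31 untreated), and were 0.16, -0.51 and 0.05 on bare particle arrays. Background probe sets were 0.52 higher on conjugate than on untreated arrays, and were -0.05, -0.13 and -0.11 on bare particle arrays. The 5' minus 3' difference was -0.50 for GAPDH and -1.99 for 18S ribosomal RNA, conjugate minus untreated. For actin it was -0.10 (exact permutation test, 2-sided p = 0.4).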

How the results depend on the processing

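Of 132 named genes past the threshold, 132 stayed past it without conjugate replicate 3, 121 without untreated replicate 3 and 119 as deposited, but 56 after quantile normalization, 20 with classes centred and scaled, 20 without conjugate replicate 2 and 0 without conjugate replicate 1. Counts of higher genes were 1549 with arrays centred on their medians, 279 after quantile normalization, 48 with classes centred and scaled, 6227 with a weight for each array and 6006 with all 9 arrays as deposited and unweighted. Counts of lower genes were 789, 109, 5272 and 4560 in the last 4 of these. With genes without bright probe sets, chosen after seeing the data, they were 1237 and 1276 (9.54% and 9.84% of those tested). Leaving out 1 array gave 0 to 3919 higher and 0 to 3654 lower. With a replicate block 2728 rose and 3206 fell. Read against untreated replicate 3, conjugate replicate 3 moved the same way for 70.4% and 64.5% of higher genes after quantile normalization and scaling. For lower genes it did so for 82.2% and 75.8%, 90.8% as deposited, 90.7% with median centring and 91.8% with the most specific probe sets. MDM2 turned to 0.0166 after quantile normalization and passed as lower without conjugate replicate 3 (-0.55), without unclassed probe sets (-0.68) and with a weight for each array (-0.58). MDM4 turned to -0.29 as deposited (also with 9 arrays), -0.46 with median centring and -0.58 as deposited without untreated replicate 3, a setting added after seeing the data. CDKN1A turned to -0.88 as deposited (also with 9 arrays), -1.05 with median centring, -1.16 after quantile normalization, -0.97 after scaling, and -1.34 as deposited without untreated replicate 3, and ranged from -0.17 to 0.63 when 1 array was left out. H2BC17 turned to 0.0842 after quantile normalization, INHBE to 0.0878 after scaling and PECAM1 to -0.10 with the most specific probe sets. The causes were not tested.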

Other observations

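Gene families that the lists do not hold, picked by symbol after their values were seen and so described without a test held these counts, beside 13.1% of all genes that rose and 14.9% that fell. Except for the mitochondrially encoded genes, most members of each family were not called. Of 341 olfactory receptor genes 54 rose (15.8%) and none fell (median 0.35; as deposited 100 and 0). Of 151 long intergenic noncoding genes 34 rose and 3 fell, of 110 antisense noncoding genes 26 and 1, and of 44 small nucleolar RNA genes 16 and 0. Of 82 keratin-associated protein genes 16 rose and none fell. On the lower side were the centrosomal CEP genes, of which 15 of 36 fell and 1 rose (median -0.68), the ubiquitin-specific proteases with 15 of 51 falling and 2 rising, the F-box genes with 20 of 63 and 7, and the RAB genes of vesicle traffic with 21 of 68 and 5. Of 491 ZNF genes 72 fell and 37 rose (14.7% and 7.54%). The 3 mitochondrially encoded genes measured all rose after centring (median 2.21; as deposited 1.02, with 2 called).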
